A study of Xenopus laevis with 3 samples.

Results

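The genes described here encode the pores through which ions and water cross the membranes of the frog embryo: ion channels and their partner subunits, gap junction proteins (connexins) and water channels (aquaporins). Members were found by gene name, without the use of their signals, as the probe sets of the array whose platform annotation gives 1 gene symbol that starts with a channel family name (kcn, cacn, scn, scnn, clcn, clic, clns, ano, trpc, trpm, p2rx, gabr, gria, grin, chrn, gja, gjb, gjc, aqp, itpr and vdac, while trpv, trpa, hcn, glra, glrb, abcc8, abcc9, gjd, panx and ryr were sought and found on none). They number 127 of the 32539 probe sets of the array, for 100 of its 11303 gene symbols and 88 base names once the homeolog endings .L and .S are dropped. *Xenopus laevis* carries a long (.L) and a short (.S) copy of many genes, and the array reads some copies separately.

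Affymetrix GeneChip *X. laevis* Genome 2.0 arrays were used to read RNA of stage 11 gastrulae, with 50 whole embryos pooled for each array and 1 array for each group. The groups were controls injected with water, embryos injected with mRNA of a glycine-gated chloride channel and kept in its opener ivermectin (GlyR+IVM, labelled GlycineR), and embryos injected with mRNA of a dominant-negative KATP potassium channel (DN-KATP, labelled 666 chimera). Ivermectin was given to the GlyR+IVM embryos and not to the controls, and the paper and the series' design text differ on whether injection was at the 1-cell or the 4-cell stage. Values are MAS5 signals on a linear scale, and with 1 array per group there is no spread between replicates, so a difference has no replicate check and no p-value is given. In RNA of whole pooled embryos, fewer cells of a type and less RNA per cell cannot be told apart.

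Resting potential is set by the balance of ion channels and pumps in the membrane. Potassium channels hold cells near the potassium equilibrium and so negative inside, sodium and calcium channels let positive charge in, chloride channels move the potential toward the chloride equilibrium, and gap junctions couple neighboring cells so that they share ions and potential. By earlier work that the paper cites, both injected channels depolarize embryonic cells, 1 through chloride and the other by blocking a potassium current. Their arrays are called depolarized on that ground, since the values used here hold no measure of potential. The comparison asks whether the embryo's own channel transcripts differ after these injections.

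No member carries the name of an injected construct: 0 of the 127 have a glycine receptor name (glra, glrb), a KATP pore name (kcnj8, kcnj11) or a sulfonylurea receptor name (abcc8, abcc9). The labels of the depolarized arrays therefore have no check against the injected mRNAs. Each marker gene is given by its highest signal among the probe sets of its base name, taken in each array separately. The values of a gene can therefore come from different probe sets or copies in different arrays. All 22 measured genes of a list of 27 gastrula markers, among them tbxt, vegt, sox17a and sox2, had a signal of at least 40 in every array, though not all were level: foxi1, an early ectoderm gene, had 581, 334 and 1739 in controls, GlyR+IVM and DN-KATP, and cer1, an anterior endoderm gene, 2796, 2653 and 1367. Of 12 genes of later differentiated tissue 9 were measured, and 3, 6 and 4 of them reached 40 in controls, GlyR+IVM and DN-KATP, with summed signals of 4495, 8762 and 5138. In that list hba1 and tnnt3 were under 10 in every array, and the cardiac and skeletal actin gene actc1 had 2672, 6311 and 3847.

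Channel genes were read at low signal more often than other genes. A signal of at least 40, which stands here for the present call of the methods because the deposited values carry no calls, was reached in any array by 65 of the 127 member probe sets (51.2%), for 49 gene symbols and 45 base names. Over all probe sets of the array the share was 70.7%, over those with 1 symbol 77.7%, over 268 probe sets of solute carriers 78.4% and over 63 of ion pump subunits 82.5%. Signals of at least 40 were found for 57 members in controls, 59 after GlyR+IVM and 61 after DN-KATP, and 55 reached it in every array. A signal of at least 100 in every array was found for 38, which cover 29 base names. Of the 65 at 40, 13 have an ending (_a_at, _s_at or _x_at) that marks probes shared between transcripts. Signals of different probe sets depend on their probes and are not compared with each other as levels.

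**Figure D1:**
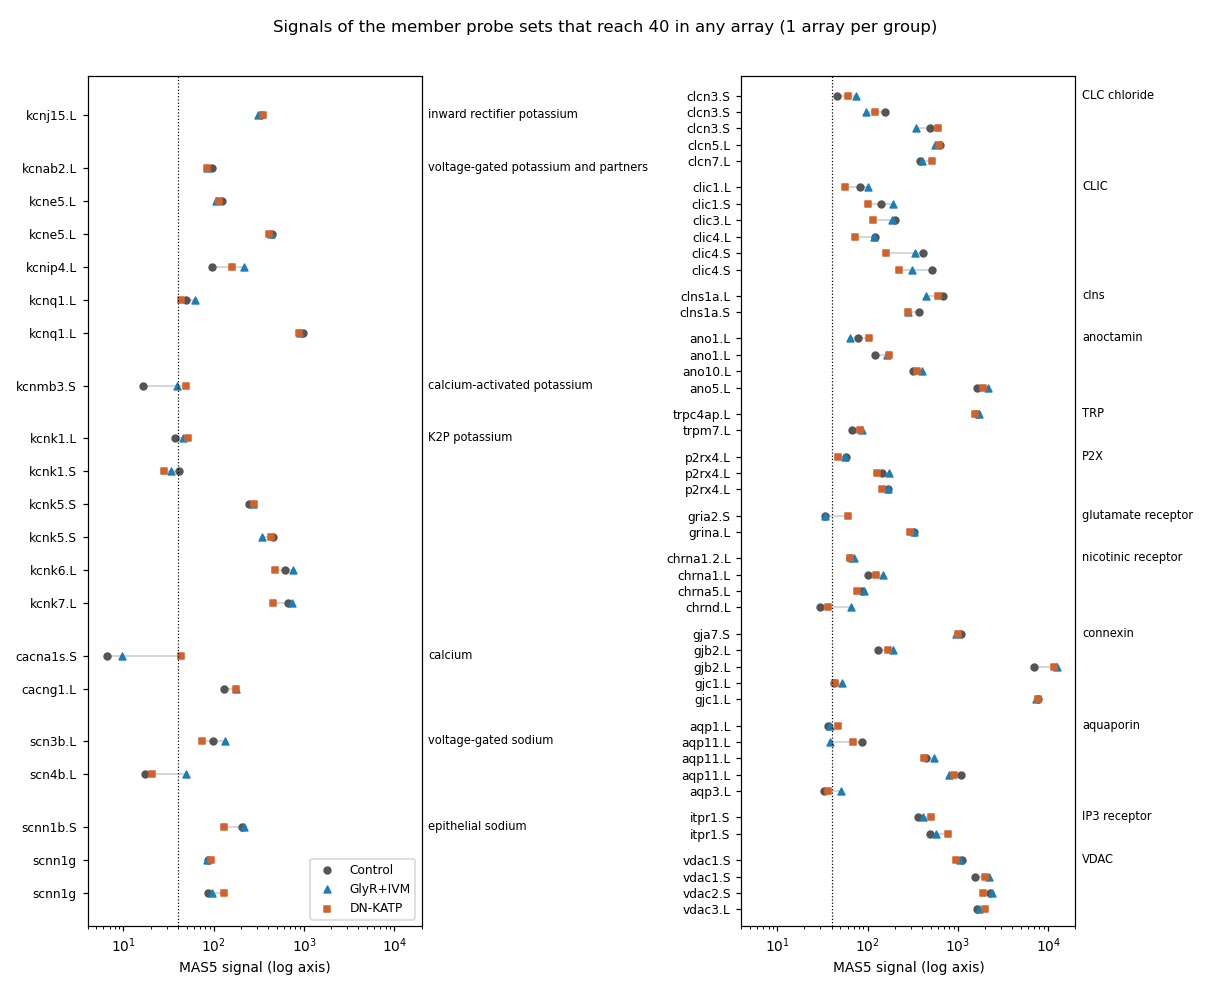
MAS5 signal (log axis) of each of the 65 member probe sets that reach 40 in any array, with 1 point per array (controls, GlyR+IVM, DN-KATP) and rows grouped by family; the dotted line is the signal of 40. For most rows the 3 points lie close together, and the widest gap is that of cacna1s.S, from 6.52 in controls to 43.8 in DN-KATP.

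As a group the members stayed near the control array. A call needed a 2-fold difference from the control array, in either direction, with the larger of both signals no less than 40. In GlyR+IVM 3 members were called higher, where 4.83% of all 23003 probe sets that reach 40 were, and 1 lower, where 2.86% were. In DN-KATP 2 were called higher, against 5.49% of all probe sets, and 2 lower, against 2.58%. These are shares of 4.62%, 1.54%, 3.08% and 3.08% of the 65 members at 40. Members all carry 1 symbol, and over the 12033 probe sets at 40 with 1 symbol the shares were 3.66%, 2.57%, 3.96% and 2.39%. Across either array 8 members were called (12.3%, against 13.2% of all probe sets and 10.6% of those with 1 symbol), which is near the background. For 5 of the 8 the smaller signal of the ratio was under 40. Among the calls higher, chrnd.L, scn4b.L, kcnmb3.S and cacna1s.S reached 40 only in the array where they were called, so the floor admitted them through that array. With 32 added to every signal only the 2 clic4.S calls were left, so that those of kcnip4.L, chrnd.L, scn4b.L, aqp11.L, kcnmb3.S and cacna1s.S ended. None of the 5 calls higher was left on the spike-in scale. There cacna1s.S and kcnmb3.S kept DN-KATP log2 ratios of 2.29 and 1.11, and scn4b.L a GlyR+IVM log2 ratio of 1.09. These are past 2-fold, so those calls ended at the floor of 40. Ratios between signals under that floor are not read here as a difference.

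No member was called the same way in both depolarized arrays: 0 were higher in both, where 1.77% of all probe sets were, 0 lower in both, where 0.665% were, and 0 higher in 1 and lower in the other, where 0.0956% were. Among probe sets at 40 with 1 symbol these shares were 1.27%, 0.565% and 0.0997%. With shares this low, counts of 0 among 65 members are near the background and are not read as a result about the members. The count higher in both also hangs on the floor. Signals of kcnmb3.S were 16.5 in controls, 39.1 after GlyR+IVM and 48.8 after DN-KATP. Both ratios passed 2-fold, but the GlyR+IVM signal fell just short of 40. Both comparisons share the control array. Over the 65 members the log2 ratio to controls had a median of 0.091 in GlyR+IVM, where that of all probe sets at 40 was 0.015, and of -0.028 in DN-KATP, where it was 0.055. Over probe sets at 40 with 1 symbol the medians were -0.0082 and -0.0039. Scaling the arrays to the hybridization spike-ins in place of the deposited scale changes every log2 ratio by -0.43 in GlyR+IVM and by -0.45 in DN-KATP, so the directions given below are those of the signals as deposited. Signals of 27 members lay above the control in both arrays, 19 below it in both and 19 on opposite sides. Such counts were not taken over all probe sets, so these are not read as a result about the members. The spread of log2 ratios over members (SD over probe sets, not over replicates) was 0.47 after GlyR+IVM and 0.59 after DN-KATP, beside 0.66 and 0.69 over all probe sets. Ratios within 0.5 of 0 on the log2 scale were found for 75.4% of members in GlyR+IVM and 76.9% in DN-KATP, beside 72.1% and 70.2% of all probe sets. Over probe sets at 40 with 1 symbol these shares were 76.5% and 74.4%, and the SDs 0.59 and 0.63. Over 210 solute carrier probe sets at 40 the medians were -0.020 and -0.0047 and 9.52% were called in either array, and over 52 ion pump probe sets -0.060 and -0.13 with 15.4% called.

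**Figure D2:**
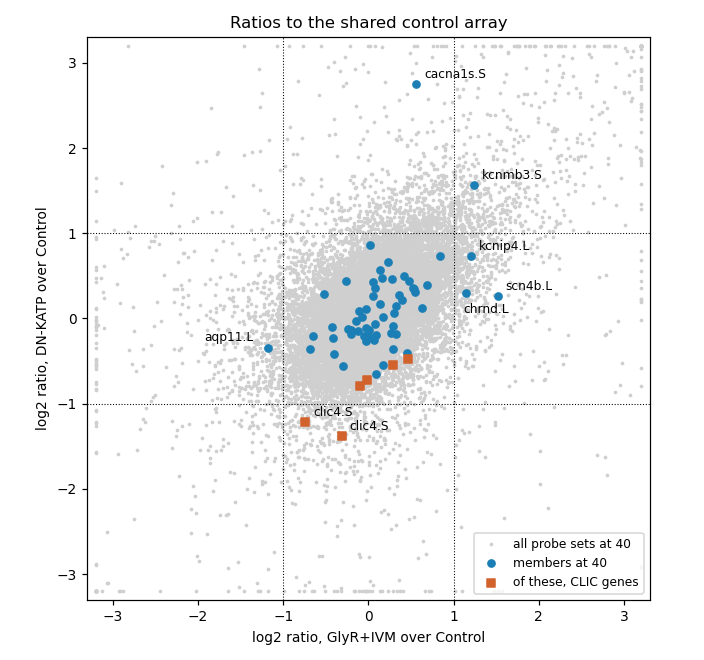
Log2 ratio to the shared control array in GlyR+IVM (horizontal) and DN-KATP (vertical) for all 23003 probe sets at 40 (grey, values beyond the axes drawn at the edge), the members (blue) and the CLIC genes (orange squares); dotted lines mark 2-fold. The called members are named, and all 6 CLIC squares lie below 0 on the vertical axis, while 4 lie below and 2 above 0 on the horizontal one.

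Members of the CLIC family had lower signals in DN-KATP than in both other arrays at every probe set that reached 40. CLIC proteins (chloride intracellular channels) exist in a soluble form with a fold like that of glutathione transferases and in a membrane-bound form, and have been tied to the cytoskeleton and to membrane traffic. The clic4.S probe set Xl2.3485.1.S1_at had a signal of 415 in controls, 335 after GlyR+IVM and 160 after DN-KATP, and a second one for the same gene, Xl2.3485.2.S1_a_at, had 521, 312 and 224. Both were called lower in DN-KATP, by 2.60-fold and 2.33-fold, and 1.43% and 1.91% of all probe sets at 40 had a DN-KATP ratio as low. In GlyR+IVM they were 1.24-fold and 1.67-fold below the control and were not called.

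The homeolog clic4.L had 120 in controls, 119 after GlyR+IVM and 73.2 after DN-KATP, so that its control and GlyR+IVM signals were almost the same. The related gene clic3.L had 199.6, 186 and 115. Neither passed 2-fold, with DN-KATP ratios of -0.72 and -0.79 on the log2 scale. For clic1.S the signals were 139, 192 and 99.8, and for clic1.L 82.7, 101 and 56.5, above the control in GlyR+IVM and below it in DN-KATP at both copies.

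Over the 6 CLIC probe sets at 40 the log2 ratio had a median of -0.060 in GlyR+IVM and ranged from -1.38 to -0.48 in DN-KATP, with a median of -0.76. In DN-KATP 6 of 6 were below the control, and 6 of 6 were below GlyR+IVM, with a median of -0.77 between the depolarized arrays. Of all probe sets at 40, 45.0% were below the control in DN-KATP and 46.7% were below GlyR+IVM. Of the 12033 with 1 symbol, 6068 were below the control in DN-KATP and 6009 were below GlyR+IVM. The family was picked out for description after its values were seen, and its direction has no test. By their highest signal in each array, the gastrula genes foxi1 (1739 in DN-KATP against 581 in controls) and cer1 (1367 against 2796) also differed in DN-KATP. Genes of the same list did not move together there. For foxi4.2 the signals were 2079 against 1796, and for tfap2a 6432 against 6742. For sox17a they were 1753 against 1165, and for gata6 2046 against 1318. The part of a different tissue makeup in the CLIC values was not tested. The direction of DN-KATP was the same at all 6 after quantile normalization. Scaling to a common median or to the spike-ins changes every DN-KATP log2 ratio by -0.13 or -0.45, and adding 32 to every signal keeps its sign. These settings could not have moved a ratio from below the control to above it, so they are no check of this direction. In GlyR+IVM the direction of clic1.L changed, to -0.13 on the spike-in scale. The seventh probe set of the family, clic5.S, was under 40 in every array (3.09, 2.91 and 2.09). The 2 clic4.S probe sets read the same gene and are not independent of each other, and 1 of them is of a type (_a_at) whose probes are shared between transcripts of a gene.

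**Figure D3:**
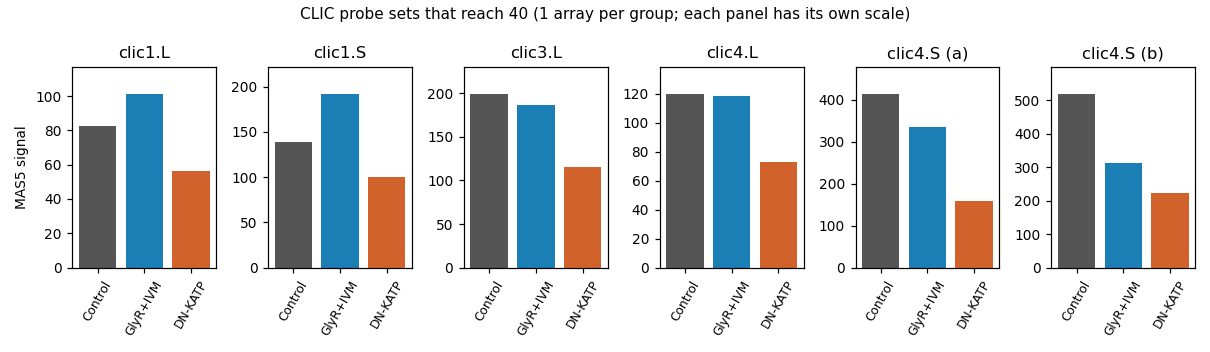
MAS5 signal of the 6 CLIC probe sets that reach 40, 1 bar per array and a separate scale, from 0, in each panel; clic4.S (a) is Xl2.3485.1.S1_at and clic4.S (b) Xl2.3485.2.S1_a_at. The DN-KATP bar is the lowest in all 6 panels, and the GlyR+IVM bar is above the control for clic1.L and clic1.S alone.

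No CLC or anoctamin probe set at 40 was lower in DN-KATP than in both other arrays. That pattern was not particular to CLIC genes. Among others, clns1a.S, vdac2.S, a probe set of vdac1.S, every probe set of p2rx4.L at 40, kcnk6.L, kcnk7.L, scnn1b.S and scn3b.L had it. The CLC genes clcn3, clcn5 and clcn7 encode chloride and proton exchangers of endosomes and lysosomes, and none of their 5 probe sets, all at 40, was called. The gene clcn5.L had 626 in controls, 565 after GlyR+IVM and 614 after DN-KATP, and clcn7.L 385, 400.04 and 517. At the 3 probe sets of clcn3.S the directions differed, with signals of 492, 344 and 601 at the brightest, of 154, 96.1 and 120 at the next and of 46.4, 74.9 and 60.8 at the dimmest. Over the 5 CLC probe sets the median log2 ratio was -0.15 for GlyR+IVM and 0.29 for DN-KATP. Anoctamins are calcium-activated chloride channels or lipid scramblases, and 4 of their 5 probe sets reached 40. All 4 were above the control in DN-KATP without a call (1 of 4 on the spike-in scale), among them ano5.L with 1640.4, 2158 and 1914 and ano10.L with 316, 397 and 349. Of all 23003 probe sets at 40, 12649 were above the control in DN-KATP. The calcium-activated chloride channel gene ano1.L had 122, 163 and 172 at its first probe set and 77.5, 64.5 and 105 at the other. The gene clns1a, whose product takes part in the assembly of spliceosomal particles and whose name comes from an early link to a chloride current, was below the control at both copies in both depolarized arrays, with 692, 443 and 599 for clns1a.L and 373, 283 and 280.1 for clns1a.S.

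Of 38 potassium channel probe sets (kcn), for 32 symbols, 14 reached 40, with a median log2 ratio of 0.059 for GlyR+IVM and of -0.12 for DN-KATP. They comprise pores that open with voltage (Kv), inward rectifiers (Kir), leak channels with tandem pores (K2P), calcium-activated channels and accessory subunits. In GlyR+IVM 7 were above the control and 7 below it, and in DN-KATP 5 above and 9 below. The accessory gene kcnip4.L encodes a calcium-binding partner of A-type Kv4 channels. Its signals were 94.9 in controls, 218 after GlyR+IVM and 158 after DN-KATP, a call in GlyR+IVM (2.30-fold) and 1.66-fold in DN-KATP. Its GlyR+IVM log2 ratio became 0.77 on the spike-in scale and 0.98 with 32 added, and the call ended under both. The gene kcnmb3.S encodes a regulatory subunit of the large-conductance, calcium-activated BK channel. Its signals were 16.5, 39.1 and 48.8, a call in DN-KATP (2.96-fold), while in GlyR+IVM the ratio was 2.37-fold with a signal just short of 40. The BK pore gene kcnma1.L was under 40 in every array (8.83, 19.1 and 22.2).

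The other potassium channel genes at 40 stayed within 2-fold. The pore gene kcnq1.L and the accessory gene kcne5.L belong to a voltage-gated channel family in which both kinds of subunit assemble. At the brighter probe set of each, signals were 981, 905 and 887 for kcnq1.L and 441, 434 and 408 for kcne5.L, and at the other 49.2, 61.8 and 43.3 and 125, 105 and 114. The accessory gene kcnab2.L, for a cytosolic beta subunit of Kv channels, had 96.7, 84.2 and 85.0, and its other probe sets were under 40. The inward rectifier kcnj15.L had 330.3, 305 and 352, and it is the only 1 of 5 Kir probe sets to reach 40. The KATP pore belongs to the same class. The 4 others were kcnj1.L, kcnj5.L, kcnj10.L and kcnj16.S, with a highest signal of 30.5. Leak channels were the potassium class with the largest share at 40, 6 of 9 probe sets. Their signals in controls, GlyR+IVM and DN-KATP were 615, 753 and 478 for kcnk6.L and 658, 742 and 450.2 for kcnk7.L, both above the control in GlyR+IVM and below it in DN-KATP. The gene kcnk5.S had 455, 338 and 427 at its first probe set and 244, 269 and 276 at the other. The copies of kcnk1 went opposite ways in small steps, 40.9, 33.2 and 27.8 for kcnk1.S and 37.3, 45.3 and 51.4 for kcnk1.L. Of the 22 probe sets of voltage-gated channels and their partners 16 were under 40 in every array, all those of kcna, kcnb and kcnd among them.

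**Figure D4:**
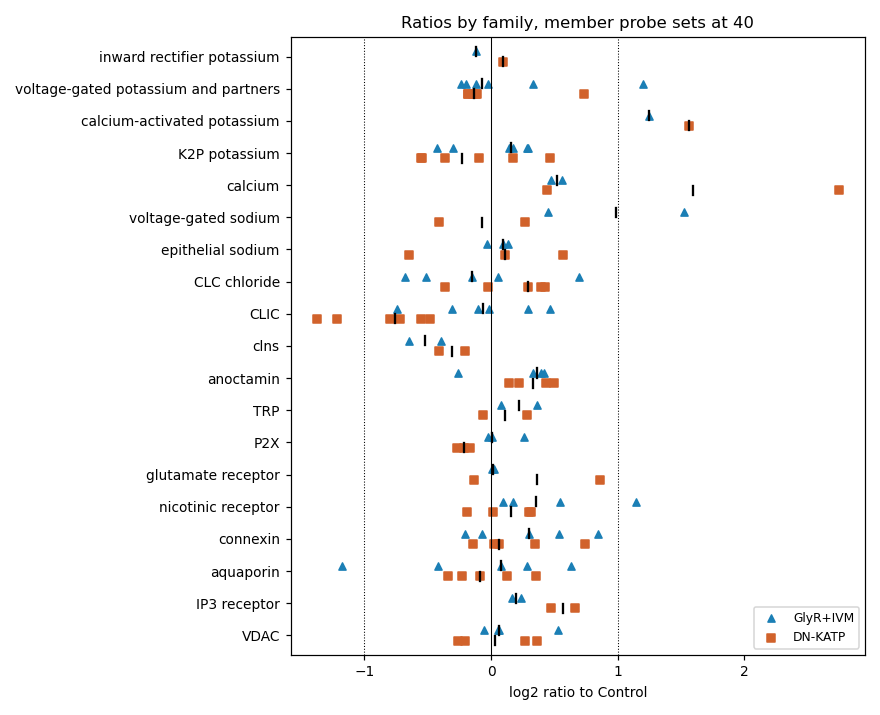
Log2 ratio to controls of the 65 member probe sets at 40, by family (rows), in GlyR+IVM (triangles) and DN-KATP (squares), 1 point per probe set, with a black bar at the median and dotted lines at 2-fold. All DN-KATP points of the CLIC, clns and P2X rows lie left of 0, and all those of the anoctamin and IP3 receptor rows lie right of it.

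Calcium channel genes were mostly read at low signal. Of 10 probe sets of voltage-gated calcium channel subunits (cacn) 2 reached 40. The gene cacna1s.S encodes the pore and voltage sensor of the L-type channel of skeletal muscle, and had 6.52 in controls, 9.63 after GlyR+IVM and 43.8 after DN-KATP. The 6.71-fold call in DN-KATP rests on 2 signals near or under 40, and among the 62 members under 40 in every array 48.4% were past 2-fold in each depolarized array. The muscle subunit gene cacng1.L had 128, 178 and 175 and was not called. The 2 probe sets of cacna1a.S were under 40 throughout, with 2.72, 21.5 and 12.5 at 1 and 3.02, 1.42 and 2.38 at the other. The paper names cacna1a as an example of a channel gene regulated by depolarization in its frog data. It used present calls, for which the floor of 40 stands here, so the floor leaves this gene without a call. Probe sets of cacna2d3.S, cacnb1.S, cacnb3.L, cacnb3.S and cacng5.L were also under 40 throughout, with a highest signal among them of 28.7.

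Sodium channel members showed 1 call. The gene scn4b.L encodes an accessory subunit of voltage-gated sodium channels, and 1 of its probe sets had 17.4 in controls, 49.8 after GlyR+IVM and 20.9 after DN-KATP, a call in GlyR+IVM (2.87-fold) at a probe set of the _a_at type. The other probe set of scn4b.L had 23.0, 8.93 and 38.6, under 40 throughout and in the opposite direction in GlyR+IVM. The accessory gene scn3b.L had 97.1, 133 and 73.2, above the control in GlyR+IVM and below it in DN-KATP. For the epithelial sodium channel, which carries sodium into transporting epithelia, scnn1b.S had 204, 217 and 129.9. The gene scnn1g had 86.6, 95.2 and 129 at its first probe set and 85.8, 83.9 and 92.4 at another that shares probes with other transcripts (_x_at). None of the epithelial sodium channel members was called. A probe set that only the study's own annotation names scnn1a is not a member and is given below.

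Among receptors that are ion channels, the nicotinic acetylcholine receptor genes were above the control in GlyR+IVM at all 4 of 9 probe sets that reached 40, or at 2 of these 4 on the spike-in scale. Of these, chrnd.L reached 40 in GlyR+IVM alone, so the floor admitted it through the array where it was high, and the shared direction is partly set by the floor. Of all 23003 probe sets at 40, 11853 were above the control in GlyR+IVM, and the direction of this family has no test. The gene chrnd.L, for the delta subunit of the muscle receptor, had 29.5 in controls, 65.2 after GlyR+IVM and 36.2 after DN-KATP, a call in GlyR+IVM (2.21-fold) at a probe set shared between transcripts (_a_at). That log2 ratio became 0.72 on the spike-in scale and 0.66 with 32 added. The alpha subunit gene chrna1.L of the same receptor had 100.3, 146 and 125, chrna1.2.L 63.4, 71.4 and 64.1, and chrna5.L 86.2, 92.0 and 75.4. Muscle genes of the later-tissue list are again given by the highest signal in each array. Among them actc1 had 2672, 6311 and 3847, myl1 1553, 2115 and 973, myh6 24.7, 66.4 and 34.7, and tnnt3 was under 10 throughout. The part of muscle transcripts in the values of the receptor, calcium channel and sodium channel genes was not tested. The muscle beta subunit gene chrnb1.L was under 40 in every array (30.6, 4.82 and 4.04). Of the others under 40, chrnb2.S and chrnb3.L were also below the control in GlyR+IVM, and chrne.L and chrng.L above it.

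The ATP-gated channel gene p2rx4.L was read by 3 probe sets, with signals of 169, 169.8 and 146 at the brightest, of 143, 172 and 128 at the next and of 57.1, 56.1 and 47.5 at the dimmest. All 3 were below the control in DN-KATP as deposited and after quantile normalization. The other scalings tried could not have changed that direction. All 3 read the same gene, and 45.0% of all probe sets at 40 were below the control in DN-KATP. The AMPA receptor gene gria2.S had 33.5, 34.0 and 60.7, and grina.L, which encodes a glutamate receptor-associated membrane protein and no pore, 326, 328 and 297. Of TRP channels, trpm7.L, a cation channel joined to a kinase domain, had 67.0, 86.3 and 81.4. The gene trpc4ap.L, which fits the rule by name but encodes a protein that associates with a TRP channel, had 1629, 1717 and 1561. The only GABA receptor probe set, for gabra2.S, was under 40 throughout (7.92, 3.15 and 8.06).

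Connexin signals reached 40 for 3 genes. Connexins form the channels that join the cytoplasm of neighboring cells, and 5 of their 9 probe sets reached 40. The gene gjb2.L (connexin 26 in mammals) had 7029 in controls, 12595 after GlyR+IVM and 11719 after DN-KATP at a probe set whose probes can match other transcripts (_s_at), and 132, 191 and 168 at the other. Signals of gjb2.L were thus above the control in both depolarized arrays at both probe sets, by 1.79-fold and 1.67-fold at the first and 1.45-fold and 1.27-fold at the second, short of a call. On the spike-in scale the second probe set went to -0.11 in DN-KATP. The gene gjc1.L had 7689, 7308 and 7799, log2 ratios of -0.073 and 0.020, and 42.1, 51.7 and 43.9 at another probe set. The gene gja7.S had 1091, 945 and 990.5. Probe sets of gja1.L (connexin 43 in mammals), gja4.S and gjb7.S were under 40 in every array, with a highest signal of 21.3.

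Water channel genes showed 1 call that other probe sets of the gene did not share. The gene aqp11.L encodes a water channel of intracellular membranes, and a probe set for it had 86.9 in controls, 38.4 after GlyR+IVM and 68.6 after DN-KATP, a call in GlyR+IVM with a log2 ratio of -1.18. Its other probe sets had 1074, 804 and 915, and 447, 544 and 419.5, the last above the control in GlyR+IVM. The gene aqp3.L, for a channel of water and glycerol, had 33.1, 51.4 and 36.1, and aqp1.L 36.6, 38.7 and 46.8, so both crossed 40 in 1 depolarized array alone. Probe sets of aqp1.S, aqp2.S, aqp3-a and aqp12a.S were under 40 in every array.

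The IP3 receptor and VDAC genes were read at signals above 100 in every array at each probe set. The IP3 receptor gene itpr1.S, whose product releases calcium from the endoplasmic reticulum, had 488 in controls, 575 after GlyR+IVM and 772 after DN-KATP at its first probe set and 363, 406 and 504 at the other. Its probe sets shared a direction, 1.58-fold and 1.39-fold above the control in DN-KATP and 1.18-fold and 1.12-fold in GlyR+IVM, without a call, and 87.2% and 80.0% of all probe sets at 40 had a DN-KATP ratio no higher. Scaled to the spike-ins, they were at -0.19 and -0.27 in GlyR+IVM and 0.21 and 0.017 in DN-KATP. The VDAC genes encode the main pore of the outer mitochondrial membrane, and all 4 of their probe sets stayed within 2-fold: vdac2.S had 2280.1, 2385 and 1907, and vdac3.L 1644, 1710.4 and 1981. For vdac1.S the probe sets differed, with 1541, 2220.3 and 1981 at the brighter and 1106, 1064 and 960.3 at the other. No probe set carries a ryanodine receptor, pannexin or HCN name.

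The 62 members under 40 in every array had signals too low for a ratio to be read as a change. Where directions of some are given above, they only describe the signals. Beside those already named, they were kcna1.S, kcna2.L, kcna3.S, kcna4.S, kcna7.S, kcnab3.L, kcnb2.S, kcnb2-a, kcnd3.L, kcne1.L, kcne3.S, kcnip1.L, kcnip2.S, kcnk6.S, kcnk9.L and kcnk10.L among potassium channels and their partners. For sodium channels they were scn1a.S, scn2b.L, scnn1b.L, scnn1d.L and scnn1g.L, and for ligand-gated channels p2rx7.L and grin1.L. The rest were trpc1.L, trpm4.L and ano1.S. The highest signals among these were 39.4 for grin1.L and 38.2 for trpm4.L, both in DN-KATP, and 38.1 for scnn1b.L in GlyR+IVM.

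Where several probe sets at 40 share a base name, their directions were set side by side. A base name joins homeologs, so for clic1, clns1a and kcnk1, and in part for clic4, different copies are compared and not readings of 1 transcript. Of 16 such base names, all probe sets lay on the same side of the control in GlyR+IVM for 6 and in DN-KATP for 12, and in both arrays for 6. These 6 were clic1, clic4, clns1a, gjb2, itpr1 and kcne5. Such shares were not taken over all base names of the array, so the counts are not read as agreement or its lack. The widest disagreements were in GlyR+IVM, for aqp11 (a range of 1.46 on the log2 scale) and clcn3 (1.38). Of the 8 called probe sets, the 2 of clic4.S were called the same way. The genes aqp11.L and scn4b.L have other probe sets, which were not called. For kcnip4.L, chrnd.L, kcnmb3.S and cacna1s.S no second member probe set exists, so none could be compared.

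Channel genes with other names were set beside the members through a fixed list of 67 genes (piezo, orai, stim, mcoln, best, lrrc8, mcu, tmem38 and others). Of these 28 had a probe set, with 47 probe sets in all, and 29 probe sets of 19 genes reached 40. In GlyR+IVM 1 was called higher and 0 lower, and in DN-KATP 3 were called higher and 0 lower, where the shares of all probe sets at 40 were 4.83%, 2.86%, 5.49% and 2.58%. Across either array 3 of the 29 were called, against 13.2% of all probe sets and 10.6% of those with 1 symbol. The gene tmem38b.S, for a potassium-permeable channel of the endoplasmic reticulum, had 38.0 in controls, 92.4 after GlyR+IVM and 248 after DN-KATP at the probe set called in both arrays. Its other probe sets had 336, 347 and 479.6, and 56.9, 38.7 and 89.8, so they did not share the call. The chloride channel family gene ttyh2.S had 73.8, 124 and 174, a call in DN-KATP. The gene tmem63a.S had 3.17, 18.8 and 43.2, with a control signal near background. Medians over the 29 probe sets were -0.12 after GlyR+IVM and 0.12 after DN-KATP.

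A further 4 probe sets have no platform symbol. They carry channel names only through the study's own annotation, which used the Affymetrix database or a sequence search. The study listed them for their change on these same arrays, so their direction is given in advance. The probe set named scnn1a, for a subunit of the epithelial sodium channel, had 48.8 in controls, 159.8 after GlyR+IVM and 210.01 after DN-KATP. That named piezo1, for a mechanically gated channel, had 31.8, 136 and 239. Those named cacna2d3 and cacnb4 had 23.1, 52.7 and 60.6, and 26.0, 58.4 and 59.4, with controls under 40. All 4 probe sets met the 2-fold call rule upward in both depolarized arrays, which follows from how they were listed. Their ratios to controls, GlyR+IVM first, were 3.27 and 4.30 for scnn1a and 4.29 and 7.53 for piezo1. For cacna2d3 they were 2.28 and 2.63, and for cacnb4 2.25 and 2.28. None of these carries a name that the naming rule could read, and they enter no count above. The count of members called in both arrays therefore leaves them out.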

How the data were processed

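The deposited intensity values are MAS5 signals on a linear scale, which the authors computed and scaled array by array with the MAS5 algorithm (version not given in the sources used here) for Affymetrix GeneChip *X. laevis* Genome 2.0 arrays, 1 for each of 3 groups. Present calls are not used here, and the signals were taken as deposited, without further normalization, and 96 control probe sets were left out. The number of arrays limits the precision, and no spread or test can be had.

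Members were found by symbol in the platform annotation, which gives 1 symbol for 15495 of 32539 probe sets, several for 279 and none for 16765. The symbols of 122 of 127 members matched RefSeq by gene ID and were unchanged. One further probe set, with the symbols kcnb2.S and kcnb2-a, was not a member. A call needs a 2-fold ratio to controls and a signal of at least 40 in the higher array. The rule was run on simulated data as a check of its code alone. The changed probe sets there had control signals of at least 100, folds well past the 2-fold cut and little noise. That run therefore says nothing on calls at signals near 40.

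Named were members called in both arrays; the 8 largest called increases and decreases in each with both signals at least 10, which leaves out cacna1s.S; all connexins, aquaporins, VDAC, cacna1a and cacnb4; and, elsewhere, the 2 probe sets with the highest control signal per family. Other genes are examples chosen after their values were seen. Members and lists were chosen with earlier results of these data known. Alternatives were other floors, folds and scalings, 32 added to every signal, and leaving out probe sets that share probes between transcripts. Python 3.11.15, numpy 2.4.6, pandas 2.3.3.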

Additional observations from a re-analysis of the deposited data

How the results depend on the processing

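Counts of called members are small and moved with most settings. In the order higher in GlyR+IVM, lower in GlyR+IVM, higher in DN-KATP and lower in DN-KATP, they were 3, 1, 2 and 2 as reported. They became 10, 4, 10 and 7 with a floor of 20 in place of 40, and 20, 15, 20 and 14 with no floor, where all 127 members enter. With a floor of 100 they were 1, 0, 0 and 2, with a fold threshold of 1.5 they were 6, 4, 6 and 5, and with a threshold of 3 they were 0, 0, 1 and 0. With 32 added to every signal they were 0, 0, 0 and 2, the last being clic4.S at both probe sets. Without probe sets that share probes between transcripts they were 1, 1, 2 and 1. Scaling to the hybridization spike-ins gave 0, 4, 0 and 8, since it moves the median of all probe sets at 40 from 0.015 and 0.055 to -0.43 and -0.42. Over all probe sets the counts in the same order were 1110, 657, 1264 and 594 as reported. They were 2291, 1343, 2397 and 1159 with a floor of 20, and 3870, 2548, 3969 and 2266 with no floor. A floor of 100 gave 475, 316, 586 and 348. Fold thresholds of 1.5 and 3 gave 2796, 1990, 3353 and 1893, and 376, 222, 422 and 215. With 32 added they were 380, 268, 480 and 305, and without shared probes 981, 573, 1127 and 514. The spike-in scale gave 302, 2052, 372 and 2138. The share of all calls that were higher was 62.8% and 68.0% as reported, 52.9% and 51.7% after quantile normalization, 55.3% and 51.8% with a common median, and 12.8% and 14.8% on the spike-in scale.

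Members higher in both arrays were 3 with a floor of 20, 13 with no floor and 2 with a threshold of 1.5, and members lower in both were 2, 4 and 1, and 1 on the spike-in scale. With no floor 2 went in opposite directions. Shares over all probe sets are not given for these counts, so they are not read as a result about the members. The median log2 ratio of members in DN-KATP was 0.10 with a floor of 20, 0.093 with no floor, -0.16 with a common median and -0.55 on the spike-in scale, and that in GlyR+IVM was -0.36 on the spike-in scale. A median was taken as moved from a change of 0.1. Of 90 ratios of named probe sets, 90 kept their side of 2-fold after quantile normalization and 90 with a common median, 84 with 32 added and 83 on the spike-in scale, and 0 called ones changed sign. The DN-KATP ratio of cacna1s.S, which is not among the 90 because its control signal is under 10, went from 2.75 to 0.98 with 32 added. No paired analysis was possible because each group has 1 array. Signals near 40 leave ratios uncertain, and 5 of the 8 calls rest on a signal under 40.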
